A study of Homo sapiens with 54 samples.

Results

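Cigarette smoke extract given before ionizing radiation was compared with radiation alone in NCI-H460 cells, 24 h after irradiation. The comparison rests on 6 of the 54 arrays of the series, chosen by their titles: 3 arrays of irradiated cells with smoke extract and 3 arrays of cells given radiation only. NCI-H460 is an established human line from a large cell carcinoma of the lung. All cultures were kept in serum-free medium for 24 h beforehand, and all treatments ran concurrently. The irradiated groups received 6 Gy from a cesium source. In the group with extract, smoke extract at 5 uM nicotine equivalent was added 2 h before irradiation, and in the group without it nothing was added. Further groups used below were smoke extract without radiation, nicotine at 5 uM before radiation, cisplatin at 1 uM with and without smoke extract, and untreated cells, each harvested at 24 h, together with both irradiated groups harvested at 2 h. Each group had 3 arrays, described by the labels as biological replicates. All were cultures of 1 line, so the measurements say nothing of other cells of the lung.

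Smoke extract carries aromatic hydrocarbons that bind the aryl hydrocarbon receptor (AHR), a transcription factor that switches on genes for xenobiotic metabolism together with genes that restrain the receptor itself. Ionizing radiation breaks DNA, and cells with intact p53 then halt division through p53 target genes and the repression of genes for replication and mitosis. Many of these cell cycle genes carry CCAAT boxes and a cell cycle genes homology region close to their start sites.

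The arrays measured 18417 genes by symbol, and values are levels taken to be on a log2 scale. Correlations between arrays of the 6 ran from 0.980 to 0.994, and 0 pairs of arrays held identical values. Olfactory receptor, keratin-associated protein and taste receptor genes, which these cells should hardly express, averaged 5.01, 5.15 and 4.76 on the arrays with extract and 5.00, 5.03 and 4.87 on the arrays of radiation alone. Replicate 3 with extract lay 0.25 below the median of its group in that mean, so counts are also given without it. The mean levels of these silent genes had a median of 4.82 and a 95th percentile of 6.76. That percentile is called the level of silent genes below, and a gene under it can still read above most of them. Changes to or from a level under 6.76 may be understated. Of 10 epithelial markers, 7 exceeded the level of silent genes, among them KRT8, KRT18, CLDN4 and CLDN7, whereas EPCAM, CDH1 and ESRP2 did not. With extract MUC1 was called higher and KRT19 lower, the call of KRT19 being lost under 5 of 15 alternatives. The mean of the list ran from 8.02 to 8.06 with extract and from 7.94 to 8.02 with radiation alone. Few markers of leukocytes (1 of 11, CD68), fibroblasts (3 of 10, COL1A1, COL3A1 and PDGFRB) and endothelium (1 of 10, CLDN5) exceeded the level of silent genes. Their part in the results was not tested.

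Against radiation alone, smoke extract given before radiation raised 469 genes and lowered 1047 at an adjusted p under 0.05 in limma. These are 2.55% and 5.68% of the genes tested. A change of more than 1.5-fold was reached by 476 of these 1516 genes (8.23% of the genes tested), or 2.58%. The 3 arrays with extract lay wholly above those of radiation alone for 5.55% of genes and wholly below for 9.77%. The highest rises were in MMP1, CYP1A1 and IL1A, and the deepest falls in DKK1, KIF20A and CDK1. After quantile normalization of the arrays, 732 genes were higher and 1036 lower, a share of higher calls of 41.4%, against 30.9%. The count was 1828 without replicate 3 of the group with extract. It was 651 when the spread was estimated from the 6 arrays only, all of them among the 1516. In RNA pooled from a whole culture, fewer cells of a kind and less RNA per cell cannot be told apart, which bears on every fall described here.

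**Figure D1:**
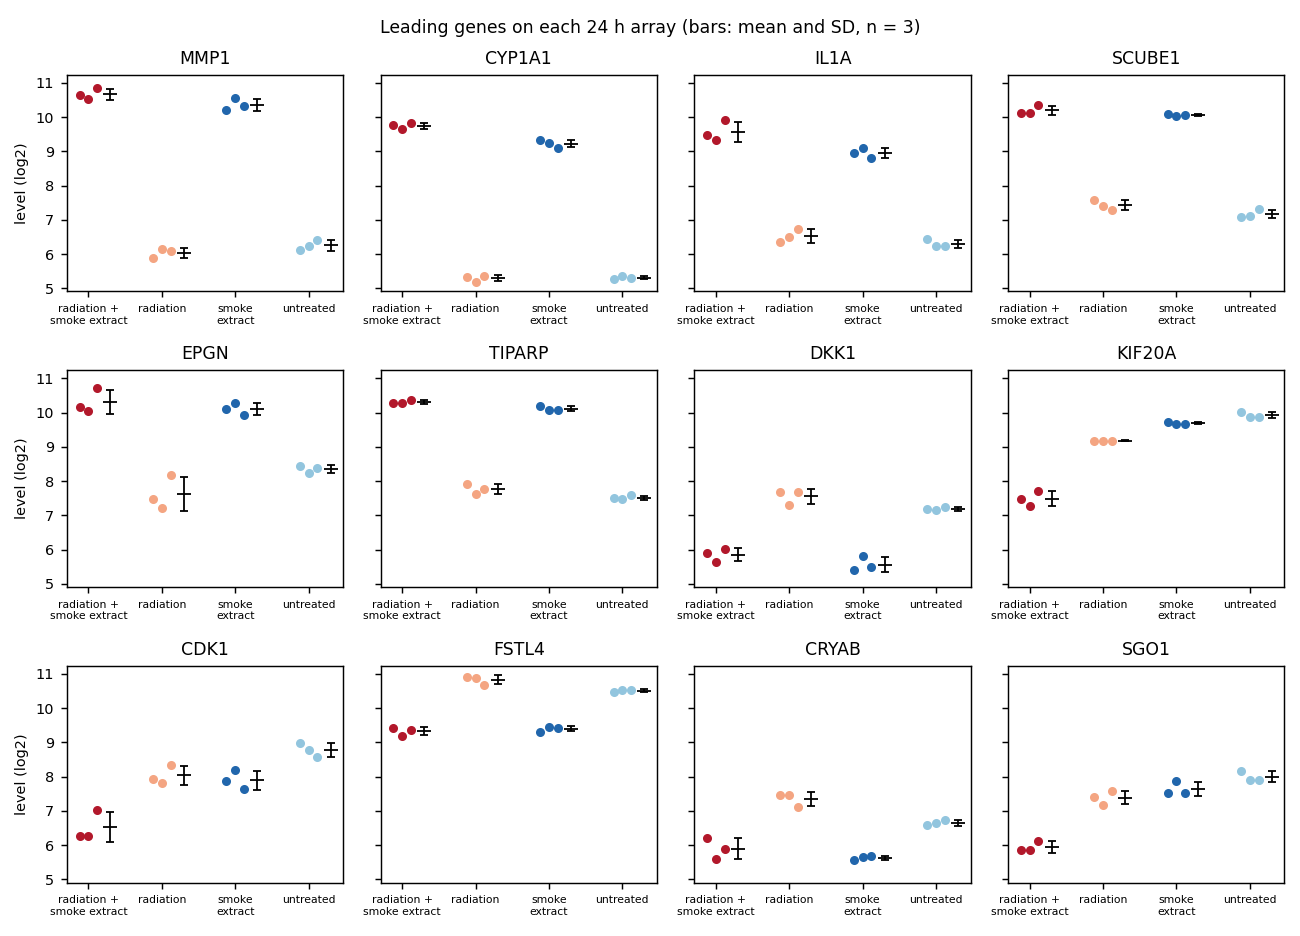
Levels (log2) of the 6 genes that rose most and the 6 that fell most with smoke extract in irradiated cells, on each of the 12 arrays of the 4 groups at 24 h; points are arrays, and black bars give the mean and SD of 3 arrays. MMP1 and CYP1A1 were high in both groups with extract, whereas KIF20A was lowest in irradiated cells with extract, at 7.26 to 7.71, against 9.16 to 9.18 with radiation alone.

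Of the 12 measured targets of AHR, 6 were called higher, 1 lower and 5 neither, against 2.55% of all genes higher and 5.68% lower. Like the other lists, this one was chosen with earlier results of these data known. CYP1A1, a monooxygenase that is the classical AHR target, stood at 9.77, 9.64 and 9.82 with extract and at 5.33, 5.20 and 5.35 with radiation alone. All arrays with extract lay far above all arrays of radiation alone. The level with radiation alone was within the range of the silent genes, so the fold may be understated. The difference was 4.45 ± 0.14 (SE), a 21.9-fold rise, with an adjusted p of 5.98e-29 in limma. TIPARP, an ADP-ribosyltransferase that restrains AHR, was at 10.29, 10.27 and 10.36 with extract, against 7.91, 7.62 and 7.78 with radiation alone, a difference of 2.53 ± 0.09. CYP1B1, a related monooxygenase, was at 12.15, 12.07 and 12.33 with extract and 10.08, 9.92 and 10.13 without. Its 2 groups lay apart by 2.14 ± 0.08. STC2, a secreted glycoprotein also induced in nutrient and endoplasmic reticulum stress, rose by 1.90 ± 0.10. ALDH3A1, an aldehyde dehydrogenase, rose by 0.96 ± 0.08, from a high level on every array. NFE2L2, which encodes NRF2, the transcription factor of the oxidant response, rose by 0.39 ± 0.11 (adjusted p 0.0113, limma), and was not called without replicate 3 of the group with extract, at 0.26 (adjusted p 0.158, limma), or without replicate 2 of radiation alone, at 0.26 (adjusted p 0.216, limma). The arrays of the 2 groups lay apart for each of these 6 targets. SLC7A5, an amino acid transporter, was the 1 member called lower, at -0.22 ± 0.07 (adjusted p 0.0401, limma), and 0 were called lower without replicate 1, 2 or 3 of the group with extract, or without replicate 1 or 2 of radiation alone. AHRR was not measured by a row with 1 symbol.

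The core of the AHR response element, GCGTG on either strand, is shown in the 250 bases before the start sites of CYP1A1, TIPARP and STC2, because these are, with CYP1B1, the AHR targets that rose most. For TIPARP the window that holds it is shown, and the other 2 windows of that gene held 0 matches. Of all 35114 RefSeq windows of that length, 32.2% hold the same 5 letters, so a match is a description only. Sequences are from RefSeq, build GRCh38.p14, written along the gene's strand with the motif in capitals: CYP1A1 at chr15:74725529-74725778 (minus strand), TIPARP at chr3:156674340-156674589 (plus strand, the first of 3 windows) and STC2 at chr5:173328415-173328664 (minus strand, where 2 of 3 matches overlap).
CYP1A1: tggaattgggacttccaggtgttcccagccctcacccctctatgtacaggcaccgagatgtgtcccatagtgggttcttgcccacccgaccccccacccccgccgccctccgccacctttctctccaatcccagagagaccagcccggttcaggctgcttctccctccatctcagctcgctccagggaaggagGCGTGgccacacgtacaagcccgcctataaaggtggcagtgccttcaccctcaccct
TIPARP: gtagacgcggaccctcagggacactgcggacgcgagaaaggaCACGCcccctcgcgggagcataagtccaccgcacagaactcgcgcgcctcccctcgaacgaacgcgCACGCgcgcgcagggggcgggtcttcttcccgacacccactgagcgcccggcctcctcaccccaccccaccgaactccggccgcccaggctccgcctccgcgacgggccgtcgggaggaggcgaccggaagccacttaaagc
STC2: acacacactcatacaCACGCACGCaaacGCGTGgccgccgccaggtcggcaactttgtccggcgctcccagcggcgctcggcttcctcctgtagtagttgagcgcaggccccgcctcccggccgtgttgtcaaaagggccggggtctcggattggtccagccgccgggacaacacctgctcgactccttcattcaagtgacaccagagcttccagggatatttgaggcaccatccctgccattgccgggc

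MMP1, IL1A, IL1B, EPGN and SCUBE1 rose. MMP1, the interstitial collagenase, stood at 10.64, 10.52 and 10.85 with extract, against 5.87, 6.15 and 6.10 with radiation alone, and no array of either group came near the other. The difference was 4.63 ± 0.13, a 24.7-fold rise (adjusted p 1.07e-30, limma). That rise may be understated because MMP1 without extract lay under 6.76, the 95th percentile of silent genes. The epithelial alarm cytokine IL1A stood at 9.47, 9.34 and 9.90 with extract and 6.34, 6.49 and 6.74 with radiation alone, so it rose by 3.05 ± 0.16. IL1B, its partner cytokine, was at 7.19, 7.26 and 8.11 with extract and 5.44, 5.57 and 5.72 without. Replicate 3 with extract was the highest of the 6 arrays for IL1A and IL1B, and the groups did not overlap for either gene. Without extract IL1A and IL1B were under the level of silent genes, so their rises may be understated. EPGN (epigen), a ligand of the EGF receptor, was at 10.16, 10.05 and 10.72 with extract, against 7.49, 7.22 and 8.17 with radiation alone, a rise of 2.69 ± 0.18. SCUBE1, a secreted protein with EGF-like repeats, was at 10.12, 10.12 and 10.35 with extract and 7.58, 7.41 and 7.28 without, a rise of 2.77 ± 0.10. The arrays of EPGN and SCUBE1 lay apart as well. Of 14 measured EGF family ligands and receptors, 1 rose (EPGN) and 2 fell (EGF and the receptor EGFR), against 2.55% and 5.68% of all genes. The call of EGF was lost under 3 of 15 alternatives and that of EGFR under 9 of 15.

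The remaining genes among the 15 with the largest rises were TMEM156, SECTM1, TESC, FMOD, IGFBP4 and STK32B, which rose by 1.53 to 2.45 on the log2 scale. SECTM1 is a secreted and membrane protein that acts on T cells, TESC a calcium-binding regulator of ion exchange, FMOD a collagen-binding proteoglycan and IGFBP4 a binding protein of insulin-like growth factors. For each of these 6 genes the arrays with extract lay above those of radiation alone, and TMEM156, FMOD and STK32B were under the level of silent genes without extract.

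In the list of cytokines and NF-kB targets, of 34 measured members, 4 rose and 2 fell, against 2.55% and 5.68% of all genes: IL1A, IL1B, CXCL8 and LIF were higher, and TNFAIP3 and PTGS2 lower. CXCL8, a neutrophil attractant, was at 10.92, 10.73 and 11.07 with extract, against 10.14, 10.22 and 10.47 with radiation alone, a rise of 0.63 ± 0.13. TNFAIP3, the feedback inhibitor of NF-kB also known as A20, was at 9.21, 9.21 and 9.35 with extract and 10.55, 10.51 and 10.60 without, and fell by 1.30 ± 0.12. PTGS2 (cyclooxygenase) fell by 0.75 ± 0.15 at levels under that of silent genes in both groups. The median change of the list was 0.02, against -0.01 over all genes tested.

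Of 33 measured metalloproteinase, plasminogen system and inhibitor genes, 4 rose and 3 fell, against 2.55% and 5.68% of all genes. Beyond MMP1, PLAT (tissue plasminogen activator) rose by 0.69 ± 0.08, MMP17 by 0.44 ± 0.08 and the inhibitor TIMP3 by 0.48 ± 0.14, the last of these at levels under that of silent genes. TIMP3 was not called without replicate 2 of the group with extract (0.47 (adjusted p 0.0586, limma)) or without replicate 2 (0.39 (adjusted p 0.141, limma)) or 3 (0.47 (adjusted p 0.055, limma)) of radiation alone. PLAUR, the urokinase receptor, was at 8.34, 8.08 and 8.43 with extract, against 8.79, 8.91 and 9.09 with radiation alone, and fell by 0.64 ± 0.08. ADAM19 fell by 0.47 ± 0.09. TIMP2, an inhibitor of metalloproteinases, fell by 0.52 ± 0.11. With the spread taken from the 6 arrays only, 2 members were called higher and 2 lower.

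Among the 29 gene lists, that of cell division had the highest share of members called. Of 54 measured genes of the G2 phase and mitosis, 51 fell and 0 rose, against 5.68% and 2.55% of all genes, and the median change was -1.04. For each of 51 members the 3 arrays with extract lay below the 3 arrays of radiation alone, against 9.77% of all genes. The mean level of the list was 7.54, 7.42 and 7.74 with extract, against 8.50, 8.42 and 8.64 with radiation alone. Leaving out any 1 of the 6 arrays left 48 to 51 members called lower.

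**Figure D2:**
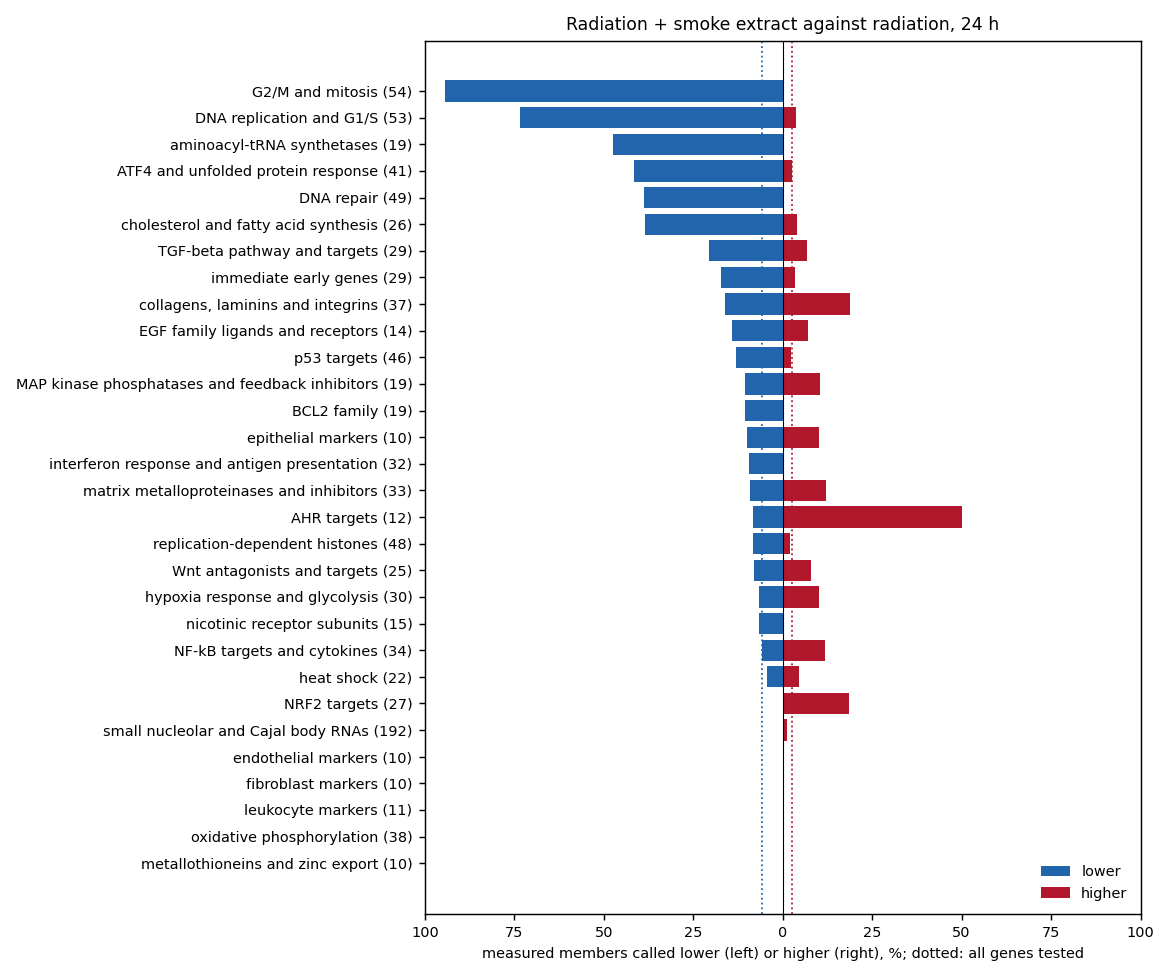
Share of measured members called lower (left, blue) or higher (right, red) in irradiated cells with smoke extract against radiation alone at 24 h. Bars are 29 gene lists and the small nucleolar and Cajal body RNAs, with the number measured in brackets. Dotted lines mark 5.68% and 2.55%, the shares over all genes tested. Mitosis and replication genes stand far to the left (51 of 54 and 39 of 53), and AHR targets to the right (6 of 12).

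KIF20A, a kinesin needed for cytokinesis, fell most among them. It stood at 7.48, 7.26 and 7.71 with extract, against 9.18, 9.18 and 9.16 with radiation alone, and every array with extract lay well below every array without. It fell by 1.69 ± 0.08 on the log2 scale (adjusted p 1.37e-20, limma). CDK1, the kinase that drives entry into mitosis, was at 6.28, 6.25 and 7.03 with extract and 7.94, 7.83 and 8.35 without, and fell by 1.52 ± 0.18. Replicate 3 was the highest of its group in both conditions, and the groups did not overlap. CDK1 with extract was on average under the level of silent genes. MKI67, whose protein is the proliferation marker Ki-67, was at 7.69, 7.56 and 8.01 with extract, against 8.94, 8.97 and 9.15 with radiation alone, and fell by 1.27 ± 0.09. PLK1, a mitotic kinase, was at 9.20, 9.32 and 9.12 with extract and 10.36, 10.39 and 10.22 without, and fell by 1.11 ± 0.07.

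Falls between 1.34 and 1.43 were measured for CENPI and NUF2 (kinetochore), TTK (spindle checkpoint kinase), DLGAP5 (spindle assembly) and NCAPG (condensin). Among the 15 genes with the deepest falls, SGO1 and ESCO2, which protect and establish sister chromatid cohesion, fell by 1.44 ± 0.13 and 1.38 ± 0.11, and SHCBP1 and PBK by 1.38 ± 0.08 and 1.37 ± 0.11. SGO1, ESCO2, TTK and NUF2 fell to levels under that of silent genes, so their falls may be understated. CCNB1 (cyclin B1) and AURKA (aurora kinase A) fell by 0.99 ± 0.12 and 1.01 ± 0.10. The 3 members that did not pass were WEE1, an inhibitor of CDK1, at -0.45 ± 0.16 (adjusted p 0.0892, limma, called with the mean of silent genes as covariate, and also when arrays that stood apart in that mean were dropped), the CDK1 activator CDC25B at -0.02 ± 0.09, and the cytokinesis kinesin KIF23 at 0.03 ± 0.11.

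A pair of cell cycle elements was searched for on both strands of the 250 bases before the start sites of the mitosis list: the cell cycle genes homology region, TTTGAA or TTCGAA, and the CCAAT box, CCAAT. This search was added with the values of the list known. Windows were in the RefSeq table for 46 of the 54 genes, 60 windows in all. The homology region was present in 41.7% of these windows, against 14.3% of all 35114 windows, the CCAAT box in 63.3%, against 32.0%, and both in 31.7%, against 5.05%. The windows of CDK1 and KIF20A, the members that fell most, are shown with the elements in capitals: CDK1 at chr10:60778228-60778477 (plus strand, the second of 2 windows, with 2 matches of each element) and KIF20A at chr5:138178862-138179111 (plus strand, with 2 CCAAT boxes and 0 homology regions in these 250 bases).
CDK1: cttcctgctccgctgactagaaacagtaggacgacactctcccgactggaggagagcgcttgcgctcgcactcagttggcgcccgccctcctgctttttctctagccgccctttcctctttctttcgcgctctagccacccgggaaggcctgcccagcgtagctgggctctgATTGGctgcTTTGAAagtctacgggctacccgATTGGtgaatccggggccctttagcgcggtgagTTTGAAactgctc
KIF20A: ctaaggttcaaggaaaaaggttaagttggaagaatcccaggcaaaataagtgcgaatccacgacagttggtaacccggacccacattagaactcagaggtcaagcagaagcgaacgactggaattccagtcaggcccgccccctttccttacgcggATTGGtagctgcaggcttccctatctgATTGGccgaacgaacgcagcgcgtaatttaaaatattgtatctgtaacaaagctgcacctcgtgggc

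Genes for DNA replication and the G1/S transition also fell. Of 53 measured members, 39 fell and 2 rose, against 5.68% and 2.55% of all genes, with a median change of -0.60. CDC6, which loads the replicative helicase, was at 7.54, 7.36 and 7.68 with extract, against 8.87, 8.94 and 8.73 with radiation alone, and fell by 1.32 ± 0.10 (adjusted p 8.52e-15, limma). MCM10, a replication initiation factor, was at 6.48, 6.74 and 6.60 with extract and 7.84, 7.74 and 7.59 without, and fell by 1.11 ± 0.10 to a level under that of silent genes. Neither gene's groups overlapped. RFC3, a subunit of the clamp loader, fell by 0.96 ± 0.13, and CLSPN, the checkpoint adaptor claspin, by 0.92 ± 0.19, near the level of silent genes in both groups. The 2 members that rose were E2F7, a repressor of the E2F family, by 0.41 ± 0.09, and CCND1 (cyclin D1), by 0.28 ± 0.07. CCND1 was not called with the spread of the 6 arrays only.

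Fewer DNA repair genes fell. Of 49 measured members, 19 fell and 0 rose, against 5.68% and 2.55% of all genes, with a median of -0.22. XRCC2, a gene of homologous recombination, was at 7.24, 7.03 and 7.62 with extract, against 8.33, 8.20 and 8.43 with radiation alone, and fell by 1.02 ± 0.11. BLM, the helicase lost in Bloom syndrome, was at 6.41, 6.35 and 6.73 with extract and 7.55, 7.32 and 7.51 without, and fell by 0.97 ± 0.10. BRIP1 and BRCA1, partners in homologous recombination, fell by 0.92 ± 0.12 and 0.70 ± 0.12. CHEK1, the checkpoint kinase, fell by 0.47 ± 0.10. The groups did not overlap for any of these 5 genes, and BLM and BRIP1 with extract averaged under the level of silent genes. With the spread of the 6 arrays only, 12 members were called lower.

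**Figure D3:**
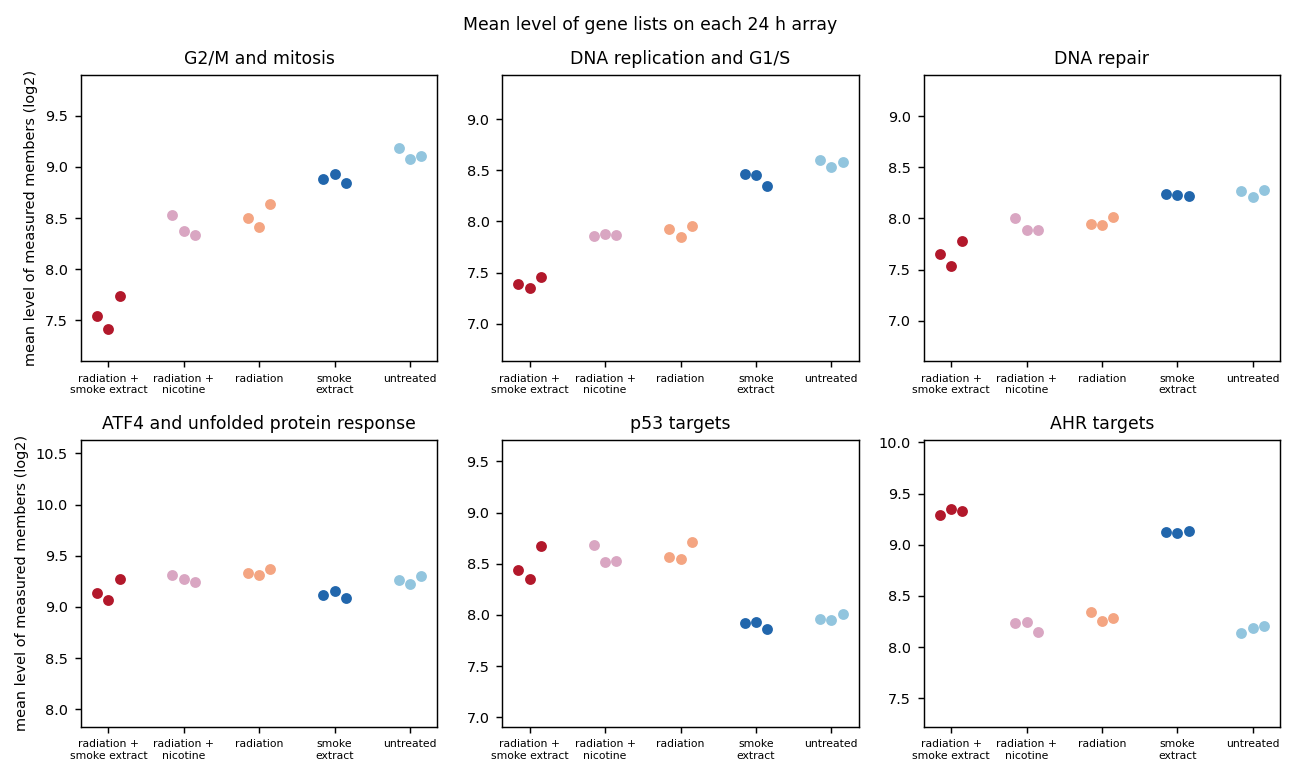
Mean level (log2) of the measured members of 6 gene lists on each array of 5 groups at 24 h, with 1 point per array and the same height of axis, 2.8 log2 units, in each panel. The mitosis list stands lowest on the 3 arrays of radiation with smoke extract (7.42 to 7.74), while the AHR list stands high in both groups with extract.

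CDKN1A and MDM2, both targets of p53, were not called. CDKN1A, the p53-induced inhibitor of cyclin-dependent kinases, was at 9.16, 9.35 and 9.90 with extract and 8.93, 8.97 and 9.84 with radiation alone. The groups overlapped, and the difference of 0.22 ± 0.16 had an adjusted p of 0.577 (limma), though it was called when replicate 3 of radiation alone was left out, at 0.52 (adjusted p 0.0151, limma). MDM2, the ubiquitin ligase that p53 induces against itself, was at 10.88, 10.73 and 11.15 with extract, against 10.87, 10.80 and 11.15 without, also with overlapping groups (-0.02 ± 0.11, adjusted p 0.978). Of 46 measured p53 targets, 6 fell and 1 rose, against 5.68% and 2.55% of all genes, and the median change was -0.15. KITLG, the KIT ligand, fell by 0.65 ± 0.15. LIF, also in the cytokine list, was the member that rose, by 0.56 ± 0.10. The number lower was 3 without replicate 2 and 11 without replicate 3 of the group with extract, and 1 with the spread of the 6 arrays only. The mean level of the list was 8.44, 8.35 and 8.68 with extract and 8.56, 8.55 and 8.71 with radiation alone, against 7.95 to 8.01 in untreated cells.

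Among genes of the oxidant response GCLM rose, and HMOX1 and NQO1 were not called. HMOX1 (heme oxygenase) was at 8.53, 8.54 and 8.44 with extract, against 8.34, 8.23 and 8.06 with radiation alone. Its groups did not overlap, but the difference of 0.30 ± 0.10 had an adjusted p of 0.057 (limma), and it was called under 5 of 15 alternatives. These were quantile normalization, the mean of silent genes as covariate, testing only genes above the median level, leaving out arrays that stood apart in that mean, and leaving out replicate 1 of radiation alone, where it was 0.36 (adjusted p 0.0358, limma). NQO1, a quinone reductase, was at 12.73, 12.76 and 12.72 with extract and 12.74, 12.68 and 12.67 without, with overlapping groups and an adjusted p of 0.785. Of 27 measured NRF2 targets, 5 rose and 0 fell, against 2.55% and 5.68% of all genes, and for 10 the arrays with extract lay wholly above those of radiation alone, against 5.55%. GCLM, a subunit of the enzyme that limits glutathione synthesis, rose by 0.67 ± 0.11, the largest change in the list. The number higher was 1 without replicate 1 and 2 without replicate 3 of the group with extract, and 3, 2 and 3 without replicates 1, 2 and 3 of radiation alone. Metallothionein and zinc export genes were called 0 times in 10, and oxidative phosphorylation genes 0 times in 38.

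Genes of amino acid supply and of the ATF4 response, which cells switch on when amino acids or protein folding fail, were in part lower. Of 41 measured members of the ATF4 and unfolded protein response list, 17 fell and 1, STC2, rose. Over all genes 5.68% fell and 2.55% rose, shares that also stand beside the other lists of this paragraph. PHGDH, the first enzyme of serine synthesis, was at 9.12, 9.08 and 9.80 with extract, against 9.98, 10.05 and 10.39 with radiation alone, and fell by 0.81 ± 0.13. ASNS (asparagine synthetase) was at 8.17, 7.96 and 8.15 with extract and 8.76, 8.67 and 8.67 without, and fell by 0.61 ± 0.08. PSAT1, also of serine synthesis, fell by 0.56 ± 0.10. Of 19 cytosolic aminoacyl-tRNA synthetases, 9 fell and 0 rose, led by WARS1, which fell by 0.63 ± 0.06, and AARS1, by 0.58 ± 0.07. Of 26 genes of cholesterol and fatty acid synthesis, 10 fell and 1, TM7SF2, rose. SCD, which desaturates fatty acids, fell by 0.23 ± 0.05. The number lower in the ATF4 list was 11 without replicate 2 of the group with extract, and that in the cholesterol list 6 without replicate 3 of radiation alone. With the spread of the 6 arrays only, the 3 counts were 3, 4 and 0.

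Some immediate early genes were lower at this time, while feedback inhibitors changed both ways. Of 29 measured immediate early genes, 5 fell and 1 rose, against 5.68% and 2.55% of all genes. NR4A1, an orphan nuclear receptor, was at 8.53, 8.44 and 8.40 with extract, against 9.37, 9.42 and 9.37 with radiation alone, and fell by 0.93 ± 0.11. Its relatives NR4A2 and NR4A3 fell by 0.99 ± 0.13 and 0.96 ± 0.12. Of 19 measured MAP kinase phosphatases and feedback inhibitors, 2 fell and 2 rose, against the same 5.68% and 2.55%. The phosphatases DUSP1 and DUSP6 fell by 0.72 ± 0.11 and 0.61 ± 0.10. The RAS pathway inhibitor SPRED1 rose by 0.59 ± 0.12, and SPRY2 was also called higher, a call lost under 5 of 15 alternatives. IER3, an early response gene linked to cell survival, rose by 1.04 ± 0.14 and was at 9.97, 9.95 and 10.27 with extract, against 8.90, 8.92 and 9.27 without.

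The counts of the Wnt and heat shock lists stand beside 2.55% of all genes higher and 5.68% lower, and no list was tested as a set. Of 25 measured genes of the Wnt list, 2 rose (LGR5 and CCND1) and 2 fell (DKK1 and KREMEN1). KREMEN1 was not called without replicate 2 of the group with extract or without replicate 1 or 2 of radiation alone. Of 22 heat shock genes, 1 rose (HSPA8) and 1 fell (CRYAB), while 2 rose without replicate 2 or 3 and 3 fell without replicate 3 of the group with extract. HSPA8 was not called after quantile normalization, at 0.11 (adjusted p 0.096, limma). DKK1, a secreted Wnt antagonist, was at 5.91, 5.64 and 6.02 with extract and 7.68, 7.29 and 7.69 with radiation alone, and fell by 1.70 ± 0.14, to a level under that of silent genes. LGR5, a receptor for R-spondins that amplifies Wnt signals, was at 6.88, 6.63 and 7.33 with extract, against 5.65, 5.62 and 5.47 without, and rose by 1.37 ± 0.12 from a level under that of silent genes. CRYAB, a small heat shock protein, fell by 1.45 ± 0.17, also to under that level. FSTL4, a follistatin-like protein, was at 9.42, 9.19 and 9.37 with extract and 10.91, 10.89 and 10.68 without, and fell by 1.5 ± 0.08, and CACNB2, a calcium channel subunit, fell by 1.37 ± 0.08. The groups of each of these genes lay apart.

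Of 37 collagens, laminins, integrins and related matrix genes, 7 rose and 6 fell. Over all genes 2.55% rose and 5.68% fell, shares that also stand beside the other lists of this paragraph. ITGB4, the integrin of hemidesmosomes, rose by 0.69 ± 0.07, and COL5A2 fell by 0.47 ± 0.10. With the spread of the 6 arrays only, 3 were called higher and 2 lower. In the TGF-beta list of 29 measured genes, 2 rose (SMAD3 and ID1), of which 0 or 1 was called without any 1 of the 6 arrays. In the same list 6 fell, among them PMEPA1, the receptors TGFBR1 and TGFBR2 (the latter by 0.31 ± 0.07) and the ligand TGFB2 (by 0.27 ± 0.06). Of 30 hypoxia and glycolysis genes, 3 rose: SLC2A1, the glucose transporter, by 0.67 ± 0.06, NDRG1 by 0.90 ± 0.08 and PFKP by 0.22 ± 0.07. PFKP was not called without replicate 1 (0.22 (adjusted p 0.0835, limma)) or 2 (0.22 (adjusted p 0.0801, limma)) of the group with extract, or without replicate 3 of radiation alone (0.14 (adjusted p 0.316, limma)). PDK1, a kinase that curbs pyruvate oxidation, fell by 0.61 ± 0.10 and was 1 of 2 members called lower, a number that was 1 without replicate 2 and 6 without replicate 3 of the group with extract. Interferon response genes were 0 higher and 3 lower of 32, with OAS1 and OAS3 falling by 0.42 ± 0.06 and 0.47 ± 0.09. CHRNA5, a nicotinic receptor subunit, was at 9.45, 9.07 and 9.38 with extract, against 9.81, 9.81 and 9.75 without, and fell by 0.49 ± 0.08. CHRNA7 overlapped between the groups (-0.18 ± 0.15, adjusted p 0.696, limma), at the level of silent genes, and CHRNA5 was the only called gene among 15 measured subunits.

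The effect of the extract in irradiated cells was then set beside its effect in unirradiated cells at 24 h, a comparison of 6 other arrays. In unirradiated cells 1597 genes rose and 1362 fell (8.67% and 7.40%, together 16.1%). Of the 469 genes that rose in irradiated cells, 335 (71.4%) also rose without radiation, which is 21.0% of the 1597, and 1, DESI1, fell. Of the 1047 that fell in irradiated cells, 384 (36.7%) also fell without radiation, 28.2% of the 1362, and 6 rose. The changes of the 18417 genes correlated with Pearson's r of 0.465 and Spearman's rho of 0.288 across genes, which are not independent replicates, and r was 0.897 over the 476 genes past 1.5-fold, a set chosen by the irradiated change. The unirradiated count of 2959 was 1903 without replicate 3 of smoke extract alone.

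The difference between the irradiated and unirradiated effects was tested as an interaction over the 12 arrays, and it shares the 6 arrays of the main comparison. It was called for 474 genes (2.57%), with 135 (0.733%) higher and 339 (1.84%) lower in irradiated cells. After quantile normalization 301 were higher and 454 lower, a share of higher calls of 39.9%, against 28.5%. For the AHR list, 0 of 12 members differed. The change of CYP1A1 was 4.45 in irradiated cells and 3.91 in unirradiated cells, a difference of 0.54 ± 0.19 with an adjusted p of 0.115 (limma). That of MMP1 was 4.63 and 4.10, with an adjusted p of 0.0996. After quantile normalization both differences were called, at 0.67 (adjusted p 0.0124, limma) and 0.63 (adjusted p 0.0345, limma), and that of MMP1 also with the mean of silent genes as covariate. TIPARP (2.53 with radiation and 2.60 without), SCUBE1 (2.77 and 2.90) and DKK1 (-1.70 and -1.63) had differences of -0.06 ± 0.13, -0.13 ± 0.14 and -0.06 ± 0.20, each not called.

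**Figure D4:**
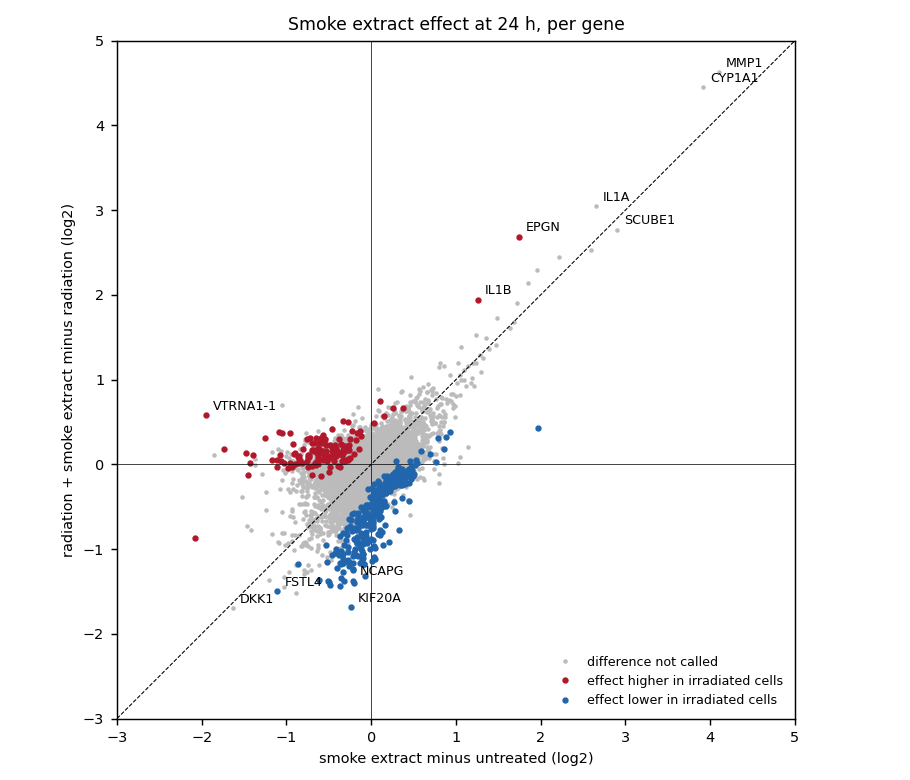
Change with smoke extract at 24 h for each of 18417 genes, in irradiated cells (vertical axis, log2) and in unirradiated cells (horizontal axis, log2); the dashed line marks equal change, red and blue points are the 135 and 339 genes whose effect differed. MMP1, CYP1A1 and DKK1 lie close to the line, and KIF20A and NCAPG well below it.

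Cell division genes lay on the lower side of the interaction. Of the 54 mitosis genes 33 were called lower and 0 higher, against 1.84% and 0.733% of all genes, with a median difference of -0.80. When any 1 of the 12 arrays was left out, 29 to 41 were called lower. For KIF20A the extract changed the level by -1.69 in irradiated cells and by -0.24 in unirradiated cells, where the arrays read 9.72, 9.66 and 9.67 with extract and 10.03, 9.88 and 9.86 untreated. The interaction was -1.45 ± 0.12 (adjusted p 1.57e-11, limma). NCAPG changed by -1.37 with radiation and -0.22 without, an interaction of -1.15 ± 0.11. PLK1 changed by -1.11 with radiation and -0.09 without, an interaction of -1.02 ± 0.10. CDK1 (-1.52 and -0.89) and AURKA (-1.01 and -0.91) fell in both settings, and their interactions of -0.63 ± 0.25 and -0.10 ± 0.15 were not called, although that of CDK1 was called without replicate 3 of radiation with extract, at -0.89 (adjusted p 0.0409, limma). The count of 474 varied with single arrays: it was 219, 212 and 1498 without replicates 1, 2 and 3 of radiation alone, 296 and 243 without replicates 1 and 3 of smoke extract alone, and 288 and 259 without replicates 1 and 2 of untreated cells.

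In the 4 groups at 24 h, the group mean was lowest in irradiated cells with extract for 53 of the 54 mitosis genes, 48 of 53 replication genes and 36 of 49 repair genes, against 24.8% of all genes tested. The mean level of the mitosis list was 7.42 to 7.74 with radiation and extract, 8.42 to 8.64 with radiation, 8.84 to 8.93 with extract and 9.07 to 9.19 untreated. In unirradiated cells 18 of the 54 fell and 1, CDC25B, rose with the extract, against 7.40% and 8.67% of all genes. The number lower was 11 without replicate 1 of smoke extract alone and 8 and 11 without replicates 1 and 2 of untreated cells. Among replication genes the interaction was called lower for 21 of 53 and higher for 0, and among repair genes for 12 of 49 and 0. Over all genes these shares were 1.84% and 0.733%. Named examples were CDC6 (-1.24 ± 0.14), MCM10 (-1.16 ± 0.14), BLM (-0.99 ± 0.14) and BRIP1 (-0.75 ± 0.17). The repair count was 5 without replicate 1 of radiation alone, 7 and 5 without replicates 1 and 3 of smoke extract alone, and 6 without replicate 2 of untreated cells. With the spread of the 12 arrays only, 11 replication genes were called lower.

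Some short structured RNAs and histone genes lay on the higher side of the interaction. Of 48 measured replication-dependent histone genes 6 were called higher, against 0.733% of all genes, and 0 lower, with a median of 0.39. In irradiated cells 1 rose and 4 fell, against 2.55% and 5.68% of all genes. In unirradiated cells 0 rose and 23 fell, against 8.67% and 7.40%. The 6 became 16 without replicate 3 of radiation alone, 2 without replicate 1 and 3 without replicate 2 of it, 2 without replicate 3 of radiation with extract, 1 without replicate 3 of smoke extract alone, and 2 without replicate 1 or 2 of untreated cells. It was 0 when the spread came from the compared groups alone or from the 24 h arrays alone. Of 10 metallothionein and zinc export genes 2 were called higher in the interaction, a number that was 0 without replicate 2 and 4 without replicate 3 of radiation alone, and 1 without replicate 1 of radiation alone, replicate 1 or 3 of radiation with extract, any replicate of smoke extract alone or replicate 3 of untreated cells. The genes named next had no called change in irradiated cells. VTRNA1-1, a vault RNA, was at 3.66, 4.02 and 4.00 with radiation and extract, 2.91, 2.88 and 4.15 with radiation, 3.93, 4.71 and 3.53 with extract and 5.71, 6.33 and 6.00 untreated, all under the level of silent genes. SNORA23, a small nucleolar RNA that guides pseudouridylation, was at 9.31, 9.07 and 9.46 with radiation and extract and at 8.87, 8.62 and 9.40 with radiation. Without radiation it was at 9.52, 10.31 and 9.69 with extract and at 10.90, 11.34 and 11.06 untreated. Its level was highest in untreated cells, and the extract changed it by 0.32 in irradiated cells (adjusted p 0.63) and by -1.26 in unirradiated cells. H2AC25, a histone gene, changed by 0.14 and -1.48 in those settings, at a level under that of silent genes in irradiated cells. Of 192 measured small nucleolar and Cajal body RNAs, 2 rose and 0 fell in the irradiated comparison, against 2.55% and 5.68% of all genes. In unirradiated cells 6 rose and 33 fell, against 8.67% and 7.40%. In the interaction 17 were higher, against 0.733% of all genes, and 0 lower. The 2 that rose in irradiated cells became 0 to 4 without any 1 of the 6 arrays. The count of 17 became 6 without replicate 1 or 2 of radiation alone and 28 without replicate 3, 11 and 9 without replicates 1 and 3 of radiation with extract, 7 and 8 without replicates 1 and 3 of smoke extract alone, and 9 and 7 without replicates 1 and 2 of untreated cells.

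At 2 h after irradiation, the extract had already raised 323 genes (1.75%) and lowered 167 (0.907%), together 2.66%. Among AHR targets 6 of 12 were higher at 2 h. CYP1A1 had risen by 3.15 ± 0.14, TIPARP by 2.86 ± 0.09 and CYP1B1 by 1.99 ± 0.08. Of the 54 mitosis genes, 2 were higher (KIF23 and CDC25B) and 1 lower (KIF18A, a kinesin of chromosome alignment, at -0.60 ± 0.14) at 2 h, with KIF20A at -0.04 ± 0.08 and CDK1 at -0.18 ± 0.18, neither called. KIF23 had risen by 0.91 ± 0.11 and CDC25B by 0.33 ± 0.09 at 2 h.

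**Figure D5:**
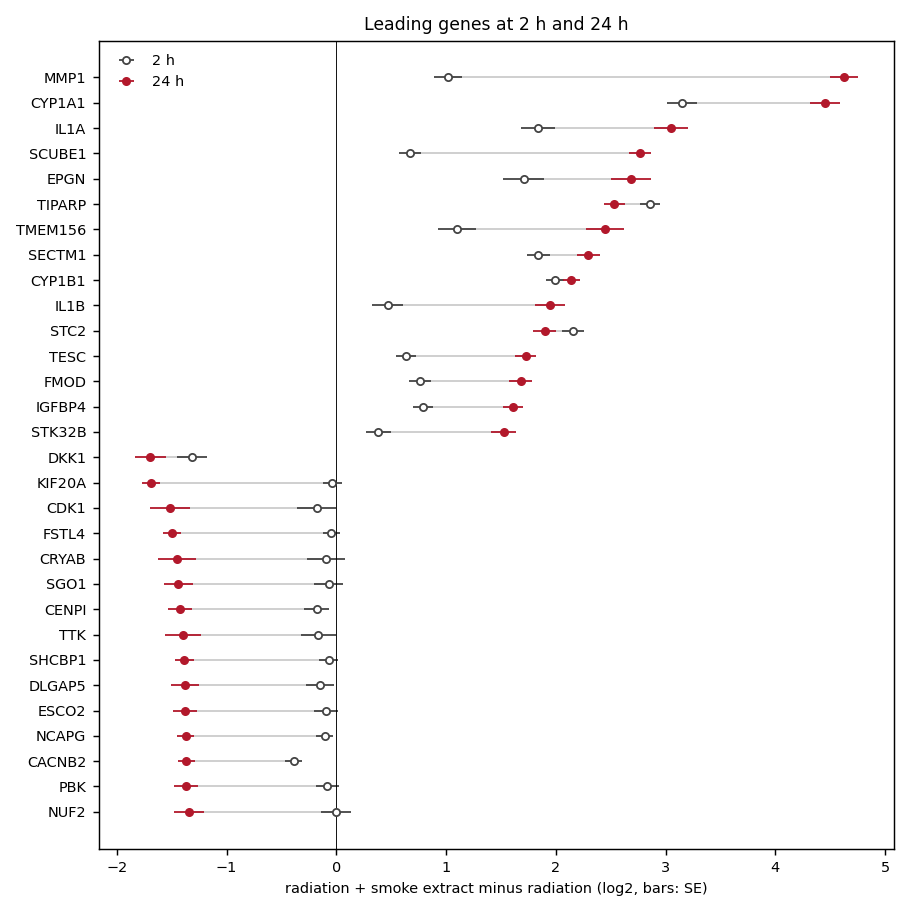
Change (log2, bars give the SE) with smoke extract in irradiated cells at 2 h (open circles) and at 24 h (filled circles) for the 15 genes that rose most and the 15 that fell most at 24 h. TIPARP and STC2 had risen by 2.86 and 2.16 at 2 h, MMP1 and SCUBE1 by 1.02 and 0.67, and KIF20A and CDK1 stood at -0.04 and -0.18.

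The change at 24 h minus that at 2 h, over 12 arrays that include the 6 of the main comparison, was called for 431 genes (2.34%), with 86 (0.467%) higher and 345 (1.87%) lower at 24 h. Of the mitosis genes 44 of 54 were lower and 0 higher, and 37 to 45 were lower when any 1 array was left out. KIF20A differed by -1.65 ± 0.12 (adjusted p 4.9e-14, limma). MMP1, which had risen by 1.02 ± 0.13 at 2 h, differed most on the higher side, by 3.61 ± 0.18. SCUBE1 differed by 2.10 ± 0.14 and IL1B by 1.48 ± 0.20. NR4A2 and NR4A3 changed in opposite directions at the 2 times. They had risen by 0.44 ± 0.13 and 0.47 ± 0.12 at 2 h (adjusted p 0.0389 and 0.0157, limma) and were lower by 24 h, with differences of -1.43 ± 0.18 and -1.43 ± 0.17. For TIPARP and CYP1B1 the difference between the times, -0.32 ± 0.13 and 0.15 ± 0.11, was not called.

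A further comparison asked whether the nicotine in the extract had the same effect, since nicotine was given at the extract's own nicotine content. Against radiation alone at 24 h, nicotine before radiation changed 1 gene at an adjusted p under 0.05 (0.00543%), the histone gene H2BC21, which was lower, while 1035 genes had an unadjusted p under 0.05. Smoke extract against nicotine, both before radiation, changed 1605 genes (8.71%), 665 (3.61%) higher and 940 (5.10%) lower. These 6 arrays include the 3 of the main comparison with extract. Of the mitosis genes 49 of 54 were lower and 0 higher, of the replication genes 39 of 53 lower and 3 higher, and of the AHR targets 6 of 12 higher. CYP1A1 differed from the nicotine group by 4.46 ± 0.14, MMP1 by 4.68 ± 0.13 and KIF20A by -1.39 ± 0.08. The mean level of the mitosis list with nicotine was 8.53, 8.38 and 8.33, which overlaps radiation alone.

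In cells given 1 uM cisplatin, which forms DNA crosslinks, instead of radiation, the extract raised 14.6% of genes and lowered 14.1% at 24 h, together 28.6%, on arrays that are not shared. CYP1A1 rose there by 4.19 ± 0.14 and MMP1 by 4.25 ± 0.13. Of the 54 mitosis genes 48 fell and 1, CDC25B, rose, the median change being -0.49, against -1.04 in irradiated cells. KIF20A changed by -0.53 ± 0.08 and NCAPG by -0.52 ± 0.08. The difference between the cisplatin and radiation settings was not tested.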

How the data were processed

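RNA, purified over silicon carbide columns and treated with DNase, was turned into labelled sense-strand cDNA for whole-transcript Affymetrix arrays, per the labels' protocols. Affymetrix Power Tools 1.15.0 was used, per the submitters' processing notes; how probes were summarized and arrays normalized is not stated there or in the labels. The authors deposited 1 table of 33297 probe rows by 54 arrays, taken to be log2 values from their range (0.892 to 13.8, array medians 6.43 to 6.63). Of these rows, 19460 carry exactly 1 gene symbol in the platform annotation, 1754 several and 12083 none, and 0 symbols changed when updated through RefSeq. The row with the highest mean stood for a gene, leaving 18417. Scanner signals are not used here, and precision is set by how many arrays there are.

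The 18 groups of 3 arrays were fitted together with limma 3.58.1 in R 4.3.3 (intensity trend, 36 residual degrees of freedom), without a replicate block, and contrasts were adjusted by Benjamini-Hochberg over all genes. A gene was called at an adjusted p under 0.05. An exact permutation test of 3 against 3 arrays cannot give a p under 0.1. The script was tested on simulated data. Replicate numbers come from the titles. In the 2 groups of the main comparison same-numbered arrays deviated together, with 3 of 3 correlations over 0.1 (0.325 to 0.674). Different-numbered arrays passed 0.1 too: 0.278 for replicate 1 with extract and 2 without, and 0.405 for 2 with and 1 without. Replicate 3 of each group went against replicates 1 and 2 of the other (-0.541 to -0.419). Deviations from a group mean cancel within the group, so these negative values follow in part from the 0.674 between both replicates 3. They are not separate evidence. The correlations therefore do not decide whether the numbers pair the arrays. Same-numbered pairs passed 0.1 in 1 of 3 cases against nicotine and 0 of 3 in unirradiated cells. The labels do not say which cultures shared a plate, so plate was not tested.

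The gene lists (802 of 877 memberships measured) and the members were chosen with earlier results of these data known. The rule for naming genes took the 15 largest changes each way among called genes whose groups lay apart. To these it added up to 4 called members of each list with the largest changes. It also took a fixed set that includes CYP1A1, AHRR, HMOX1, CDKN1A, IL1A, CHRNA5 and CHRNA7, and the 5 largest changes each way in the other contrasts. Named outside it, with their values known, were MKI67, PLK1, AURKA, CCNB1, WEE1, CDC25B, KIF23, KIF18A, BRCA1, CHEK1, E2F7, ALDH3A1, NFE2L2, SLC7A5, CXCL8, MMP17, TIMP3, ADAM19, PSAT1, SCD, TM7SF2, TGFB2, TGFBR2, PFKP, H2BC21 and DESI1. Alternatives were quantile normalization, a covariate from silent genes, a filter on dim genes, all rows, no intensity trend, fewer arrays in the fit, the replicate block, leaving out each array and, added after seeing the data, leaving out arrays far from their group in the mean of silent genes.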

Additional observations from a re-analysis of the deposited data

Results flagged for a closer look

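The difference of the smoke extract effect between irradiated and unirradiated cells, called for 474 genes by the interaction contrast in limma, and the difference between 24 h and 2 h after irradiation, called for 431, mark the results below. All values are log2 differences, and no gap test for outlying arrays was run within groups of 3. No explanation was tested.

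Among cell division genes the effect was lower in irradiated cells for KIF20A (-1.45), TTK (-1.20), NCAPG (-1.15), SGO1 (-1.08), ESCO2 (-1.06), PLK1 (-1.02), NUF2 (-0.98), CENPI (-0.94), SHCBP1 (-0.88), DLGAP5 (-0.88) and PBK (-0.75). Among replication and repair genes it was lower for CDC6 (-1.24), MCM10 (-1.16), CLSPN (-1.13), BLM (-0.99), BRIP1 (-0.75) and XRCC2 (-0.66). CLSPN was not called without replicate 1 of radiation alone, and XRCC2 was not called without replicate 2 of radiation with extract or replicate 3 of smoke extract alone. COL5A2, a collagen, had -0.63, TIMP2 -0.63, BCL2L1 -0.44, FSTL4 -0.39, AARS1 -0.37 and LIF-AS2 -1.54. On the higher side stood VTRNA1-1 (2.53), SNORA20 (1.92), H2AC25 (1.61), SNORA23 (1.57), RNU5B-1 (1.5), EPGN (0.94), H2BC5 (0.85), IL1B (0.69), ID1 (0.63) and SLC2A1 (0.30). Without replicate 2 of radiation alone, 11 of these genes were not called: EPGN, IL1B, FSTL4, TIMP2, H2BC5, AARS1, ID1, BCL2L1, SNORA20, RNU5B-1 and LIF-AS2, and each of them was also lost under other alternatives. SLC2A1 was not called without replicate 3 of radiation with extract, replicate 1 of radiation alone, replicate 1 of smoke extract alone or replicate 3 of untreated cells.

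The effect was higher at 24 h than at 2 h for MMP1 (3.61), SCUBE1 (2.10), IL1B (1.48), TMEM156 (1.35), CYP1A1 (1.31), IL1A (1.21), STK32B (1.14), TESC (1.09), EPGN (0.98), FMOD (0.92) and IGFBP4 (0.81). It was lower at 24 h for KIF20A (-1.65), SGO1 (-1.37), CDK1 (-1.34), NUF2 (-1.34), SHCBP1 (-1.32), PBK (-1.29), ESCO2 (-1.28), NCAPG (-1.27), CENPI (-1.25), DLGAP5 (-1.24) and TTK (-1.23), and outside the cell cycle for FSTL4 (-1.45), NR4A2 (-1.43), NR4A3 (-1.43), CRYAB (-1.36), CACNB2 (-0.98) and CHRNA5 (-0.37). EPGN and CHRNA5 were each not called without either replicate 1 or replicate 2 of radiation alone, among other arrays.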

How the results depend on the processing

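When the fit held the compared groups alone, 651 genes were called in irradiated cells (1516 in the fit to all arrays), 152 in the interaction (474), 264 in the time difference (431) and 549 against nicotine (1605), while the unirradiated comparison gave 3697 (2959). With the 24 h arrays only, the interaction gave 122 and the unirradiated comparison 1533. The interaction gave 755 after quantile normalization, 1218 with the mean of silent genes as covariate and 819 with genes above the median level only. Dropping arrays that stood apart from their group in that mean, 2418 genes were called against nicotine. Leaving out 1 array at a time gave 1197 to 1828 genes in irradiated cells, 212 to 1498 in the interaction, 309 to 461 in the time difference, 1234 to 2013 against nicotine and 1903 to 2658 in unirradiated cells. The replicate block gave 1563 genes in irradiated cells, 1504 of them shared with the fit without it, 481 in the interaction, 433 in the time difference, 1619 against nicotine and 3003 in unirradiated cells, and of the named results refitted with it 208 kept direction and call and 1, the CHRNA5 time difference, lost the call. Of the named results under the alternatives, 3172 kept direction and call, 311 lost the call, 13 gained it and 0 reversed. The number of mitosis genes called lower in irradiated cells stayed between 46 and 52 of 54. Apart from what the construction of each alternative shows, the cause was not tested. Levels under 6.76, the range of silent genes, limit what can be said of 8219 of the 18417 genes, and differences there may be understated.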
